A study of Mus musculus with 12 samples.

Results

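The 42 genes described here encode the machinery by which the endoplasmic reticulum (ER) folds secreted and membrane proteins and answers to their misfolding. They were chosen by symbol, as a list of known unfolded protein response and ER secretory genes, from the 20632 gene symbols of each count table. The choice was made with earlier results of these data known, so their counts beside the shares of all genes are descriptions only. All 42 were present and all 42 passed the filter on low counts, which left 12175 genes in all. They fall into 15 chaperones and folding enzymes, 8 stress sensors and stress factors, 11 genes of the translocon and signal peptidase, 7 genes of ER-associated degradation, and Sec22b, a vesicle fusion protein. The libraries hold 3' ends of transcripts from the white fat around the uterus (gonadal depot) of 12 mice at day E17.5 of pregnancy. The KO Treg group (4 mice) carried the Tnfrsf11a (Rank) knockout with Foxn1 Cre and was given the treatment labelled Treg. The KO vehicle group (4 mice) carried the same knockout and was given vehicle, and the WT vehicle group (4 mice) was Cre-negative wild type and was given vehicle. All 3 groups were pregnant, and a treated wild type group was not analysed here. Foxn1 Cre acts in thymic epithelium, so 3' reads of Tnfrsf11a from whole fat check nothing about the deletion there. Whether the gene was intact in the fat was not examined. Each library carries its own animal number, and nothing further is said of litters or cages, so p-values measure the spread between these animals.

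Proteins that enter the secretory pathway are threaded through the Sec61 channel, trimmed by signal peptidase, and folded with the help of the Hsp70 chaperone BiP, the Hsp90 relative GRP94, protein disulfide isomerases and the lectins calnexin and calreticulin. When unfolded proteins accumulate, IRE1, PERK and ATF6 in the ER membrane start the unfolded protein response. IRE1 splices the messenger of XBP1, PERK slows translation and favours ATF4, and the cleaved part of ATF6 enters the nucleus, and these factors raise transcription of chaperones and of the genes that send misfolded proteins back to the cytosol for degradation. In fat this machinery serves the secretion of adipokines, matrix proteins and lipid-handling enzymes.

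Some promoters of these genes hold the best known binding sequence of this response, the ER stress element (ERSE), which NF-Y and ATF6 bind together. RefSeq promoter sequences (build GRCm38.p6, 250 bases before to 50 after the annotated start, 300 in all) were found for 35 of the 42 genes. Hyou1, Manf, Atf6, Sec61a1, Ssr2, Spcs3 and Derl1 had no entry. ERSE was searched as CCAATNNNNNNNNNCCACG on both strands, and 9 of the 35 genes (25.7%) had it in a promoter. Of all promoters, those of these genes included, 39 of 32851 held it (0.119%). Counted by gene symbol, as the 35 are, these were 37 of 27025. The 9 genes were Hspa5, Hsp90b1, Pdia6, Calr, Canx, Dnajc3 and Creld2 among the chaperones, and Syvn1 and Derl3 among the degradation genes. The related ERSE-II, ATTGGNCCACG, was found in Dnajb11 and Herpud1 (5.71% of the 35) and in 12 promoters in all (0.0365%). The UPRE core TGACGTGG, bound by XBP1 and ATF6, was found in 0 of the 35 promoters and in 0.676% of all. The CARE, TGATGNAAN, bound by ATF4 with C/EBP partners, was found in Trib3 and Herpud1 (5.71%) and in 3.95% of all. A match describes these letters only and is no evidence of binding. The 2 whole promoters shown first belong to the chaperones whose values are described first, and capitals mark each ERSE, on either strand, in sequence written 5′ to 3′ along the gene. The Hspa5 window is chr2:34771840-34772139 (plus strand) and the Hsp90b1 window is chr10:86705395-86705694 (minus strand), where the ERSE occurs once in each orientation.
Hspa5: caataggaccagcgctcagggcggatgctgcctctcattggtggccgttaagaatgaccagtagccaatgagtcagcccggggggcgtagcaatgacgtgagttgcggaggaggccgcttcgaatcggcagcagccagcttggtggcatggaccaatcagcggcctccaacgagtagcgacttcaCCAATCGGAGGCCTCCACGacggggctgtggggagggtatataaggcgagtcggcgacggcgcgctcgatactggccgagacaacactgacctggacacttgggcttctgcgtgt
Hsp90b1: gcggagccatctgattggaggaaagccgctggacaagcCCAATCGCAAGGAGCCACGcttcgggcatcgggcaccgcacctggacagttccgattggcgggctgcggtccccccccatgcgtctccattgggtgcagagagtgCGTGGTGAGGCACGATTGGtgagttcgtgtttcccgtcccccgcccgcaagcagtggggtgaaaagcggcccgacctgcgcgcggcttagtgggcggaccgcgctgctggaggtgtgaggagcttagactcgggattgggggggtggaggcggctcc

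The other matching sites are shown with 15 bases on either side, so that the bases between and around the fixed blocks can be seen. Capitals again mark the motif, and CGTGG before ATTGG is the same element read on the opposite strand. The positions given are those of the stretches as shown, flanks included. They lie at chr12:17266476-17266524 for Pdia6, chr8:84847060-84847108 for Calr, chr11:50325785-50325833 for Canx, chr14:118937812-118937860 for Dnajc3 and chr15:88819505-88819553 for Creld2. The degradation genes' stretches lie at chr19:6046517-6046565 for Syvn1 and chr10:75893227-75893275 for Derl3. The ERSE-II stretches lie at chr8:94386362-94386402 for Herpud1 and chr16:22857837-22857877 for Dnajb11, and the CARE stretches at chr2:152344024-152344062 for Trib3 and chr8:94386301-94386339 for Herpud1. The Hspa5 element begins 65 bases before the start annotated in RefSeq. Those of the other ERSE promoters begin between 44 (Syvn1) and 212 (Hsp90b1) bases before theirs. The GENCODE M21 position of the Hspa5 gene begins at 34771970, upstream of this element, so the 2 sources place its start differently.
Pdia6: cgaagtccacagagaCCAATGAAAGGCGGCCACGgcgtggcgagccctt
Calr: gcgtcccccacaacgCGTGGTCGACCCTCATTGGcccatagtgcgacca
Canx: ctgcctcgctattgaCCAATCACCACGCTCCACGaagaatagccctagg
Dnajc3: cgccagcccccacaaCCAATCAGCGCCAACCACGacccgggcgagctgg
Creld2: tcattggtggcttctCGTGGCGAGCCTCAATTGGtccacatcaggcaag
Syvn1: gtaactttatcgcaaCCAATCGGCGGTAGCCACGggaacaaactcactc
Derl3: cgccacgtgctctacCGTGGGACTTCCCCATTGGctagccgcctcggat
Herpud1: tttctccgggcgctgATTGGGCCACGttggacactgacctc
Dnajb11: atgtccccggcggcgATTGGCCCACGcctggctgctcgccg
Trib3: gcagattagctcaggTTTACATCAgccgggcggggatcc
Herpud1: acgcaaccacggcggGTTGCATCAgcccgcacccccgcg

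Library totals ran from 5551967 to 12972655 counts, and values are given as CPM, counts scaled to a common library total by the TMM method. A count of 3 stood for 0.241 to 0.539 CPM. The adipocyte markers (7 of 7 present) summed to 29948 to 45843 CPM in KO Treg, 39700 to 47441 CPM in KO vehicle and 28955 to 44162 CPM in WT vehicle, so the tissue label matched its markers in every library. The 12 placental markers summed to 319 CPM in KO Treg 2 and 111 CPM in KO vehicle 1, and to between 12.9 and 32.01 CPM in the other 10 libraries. Most of the sum in those 10 was Psg23 alone, at 12.7 to 31.9 CPM. KO Treg 2 and KO vehicle 1 are called the placental libraries below, and in each 10 of the 12 markers had counts. Placental markers also had counts elsewhere, 7 of the 12 in WT vehicle 4 and 6 in WT vehicle 2. Plasma and B cell markers, which matter here because antibody-secreting cells are rich in ER chaperones, summed to 13.6 to 18.5 CPM in KO Treg, 11.9 to 48.2 CPM in KO vehicle and 9.34 to 76.5 CPM in WT vehicle (9 of 10 present). Those of the mammary epithelium summed to 6.07 to 20.3, 8.90 to 17.8 and 7.40 to 21.2 CPM in KO Treg, KO vehicle and WT vehicle (11 of 11 present), with Krt5, Csn3 and Wap at 0 in all 12 libraries. The ovarian list summed to 5.58 to 15.5, 3.94 to 11.6 and 4.94 to 33.1 CPM in the same order of groups (8 of 8 present), with Hsd3b1 and Amh at 0 throughout.

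All 15 ER chaperone and folding genes were at a lower level in KO Treg than in KO vehicle by the fitted fold change, and 13 of the 15 had one above 0 in KO vehicle against WT vehicle, yet none of the 42 genes passed the edgeR test across all genes. In KO Treg against KO vehicle, the log2 fold change of 35 of the 42 genes was negative (50.3% of all genes tested) and that of 7 positive (49.7%), with a median of -0.23 against -0.0018 over all genes. The edgeR quasi-likelihood test called 0 of the 42 at an adjusted p under 0.05, where it called 0.00821% of all genes. At an unadjusted p under 0.05, 13 of the 42 were lower and 0 higher, against 5.08% lower and 3.69% higher of all genes. For 11 of the 42, all 4 KO Treg libraries lay below all 4 KO vehicle libraries, and for 0 above, against 3.03% and 2.01% of all genes. DESeq2, run as an alternative, called 3 of the 42 in this comparison, Sec22b, Hspa5 and Hsp90b1, all lower, where it called 0.388% of the genes to which it gave an adjusted p. In bulk tissue, fewer cells of a type and less RNA per cell cannot be told apart.

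In KO vehicle against WT vehicle, 32 of the 42 had a fold change above 0 (49.2% of all genes) and 10 below it (50.8%), with a median of 0.15 against -0.0039 over all genes. The edgeR test again called 0 of the 42, where it called 0.279% of all genes (0.197% higher, 0.0821% lower), and DESeq2 called 1 of the 42, Sec22b, where it called 1.93% of all genes with an adjusted p. At an unadjusted p under 0.05, 9 of the 42 were higher and 0 lower, against 6.98% higher and 5.45% lower of all genes. The ranges of 6 genes did not overlap, all of them higher in KO vehicle, against 4.17% higher and 2.33% lower of all genes. Without WT vehicle 4 this count was 12, all higher, against 7.46% higher and 4.97% lower of all genes, and edgeR then called Sec22b and 1.01% of all genes. KO Treg against WT vehicle had 11 genes above 0 (49.0% of all genes) and 31 below (51.0%), with a median of -0.11, and the edgeR test called 0 of the 42 and 0% of all genes. None of the 42 had an unadjusted p under 0.05 there (1.54% of all genes higher, 1.32% lower), and the ranges of 0 genes were apart (0.813% higher, 0.821% lower). DESeq2 called 0 of the 42 and 0.00608% of all genes there. The comparisons share libraries, with KO vehicle on the lower side of the first and the upper side of the second, so their signs are not independent.

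**Figure D1:**
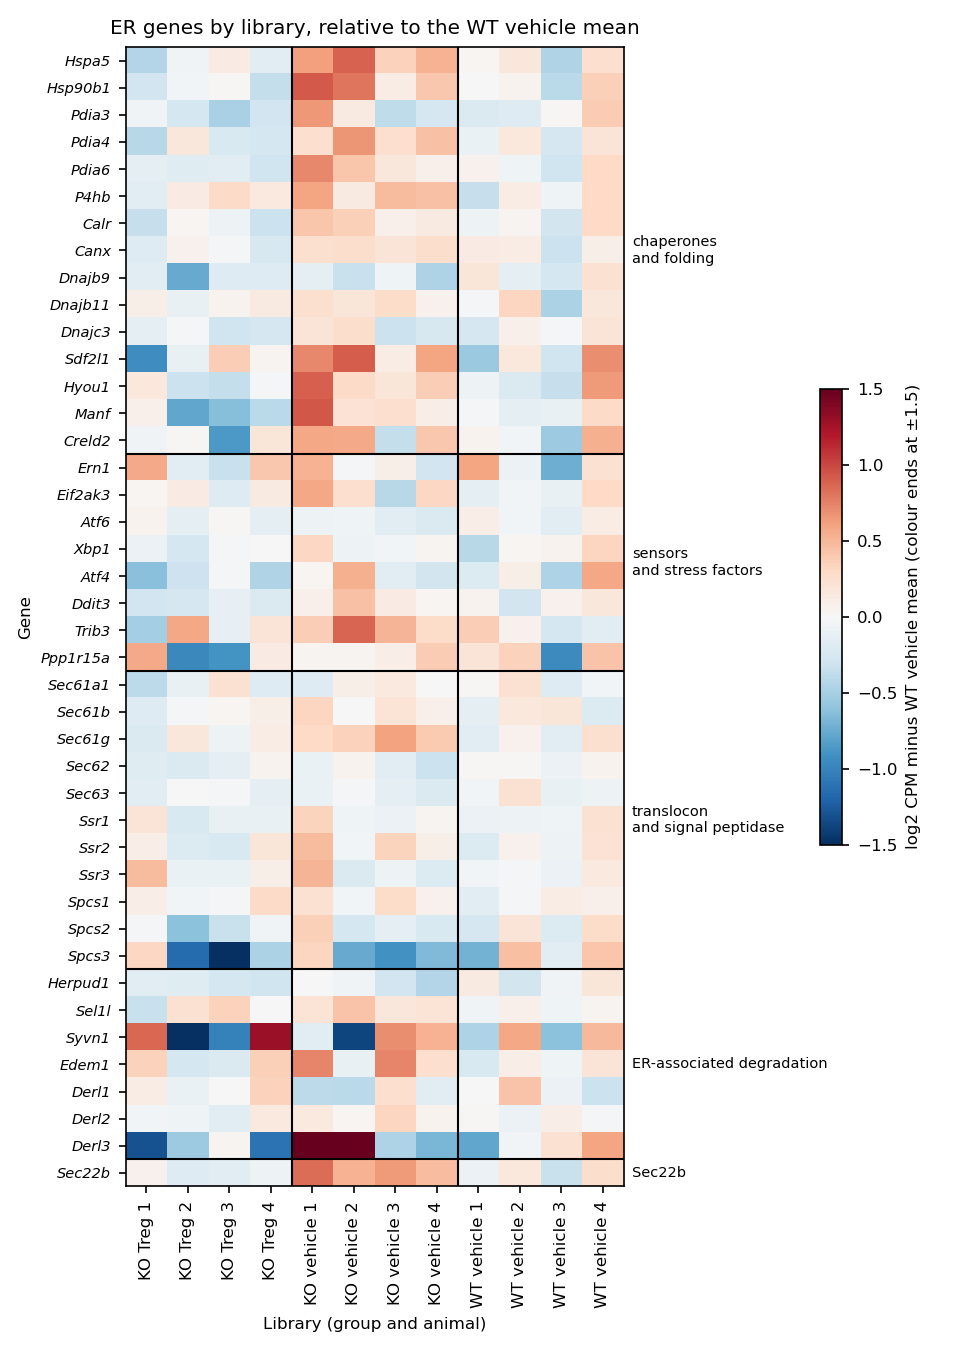
Each row is a gene, grouped by role, each column 1 of the 12 libraries in the order KO Treg, KO vehicle, WT vehicle, and the colour is the log2 CPM minus the mean of the 4 WT vehicle libraries (red above, blue below, full colour at 1.5 or more). The chaperone rows are mostly red across the KO vehicle columns, with KO vehicle 1 the highest of its group in 8 of 15 rows and KO vehicle 2 in 5, and WT vehicle 4 is the highest WT vehicle library in 13 of the 15.

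Hspa5 encodes BiP, the Hsp70 chaperone that holds unfolded chains and keeps the stress sensors silent (chromosome 2, 34771970 to 34777547, plus strand, mm10 with GENCODE M21). It had 798, 1045, 1178 and 965 CPM in KO Treg, 1660, 1998, 1378 and 1560 CPM in KO vehicle, and 1105, 1218, 796 and 1291 CPM in WT vehicle. Every KO vehicle library lay above every library of the other groups, and the KO Treg and WT vehicle libraries overlapped. The log2 fold change was -0.73 ± 0.17 (SE) in KO Treg against KO vehicle (edgeR unadjusted p = 0.00059, adjusted p = 0.248) and 0.58 ± 0.17 in KO vehicle against WT vehicle (edgeR adjusted p = 0.157). The difference between KO Treg and WT vehicle was -0.15 ± 0.17. DESeq2 gave -0.72 with an adjusted p of 0.0235 for KO Treg against KO vehicle. Over all alternatives tried, the adjusted p of this difference ran from 0.0235 to 0.732.

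Hsp90b1 encodes GRP94, the ER member of the Hsp90 family (chromosome 10, 86690209 to 86705509, minus strand). It had 364, 431, 447 and 347 CPM in KO Treg, 839, 771, 477 and 587 CPM in KO vehicle, and 441, 459, 336 and 567 CPM in WT vehicle. All KO Treg libraries lay below all KO vehicle libraries, but KO vehicle 3 lay below WT vehicle 4. Its log2 fold change was -0.75 ± 0.19 in KO Treg against KO vehicle (edgeR adjusted p = 0.260) and 0.57 ± 0.19 in KO vehicle against WT vehicle (edgeR adjusted p = 0.192). DESeq2 gave -0.74 with an adjusted p of 0.0407 in the first of these, and all alternatives together gave adjusted p-values of 0.0407 to 0.738. Exons of Hsp90b1 overlap those of Gm15344 and Gm25745 on the same strand, away from its 3' end.

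Protein disulfide isomerases form and rearrange the disulfide bonds of secreted proteins. Pdia4 had 89.1, 134, 101 and 99.1 CPM in KO Treg, 142, 189, 142 and 162 CPM in KO vehicle, and 111, 133, 99.9 and 136 CPM in WT vehicle. Its KO vehicle libraries lay above all others, with a log2 fold change of -0.58 ± 0.15 in KO Treg against KO vehicle (edgeR adjusted p = 0.270) and 0.40 ± 0.15 in KO vehicle against WT vehicle (edgeR adjusted p = 0.278). Pdia6 had 173, 169, 171 and 156 CPM in KO Treg, 316, 256, 215 and 203 CPM in KO vehicle, and 201, 183, 155 and 236 CPM in WT vehicle. The KO Treg values of Pdia6 were close together and all below KO vehicle, with a log2 fold change of -0.57 ± 0.16 (edgeR adjusted p = 0.278), while KO vehicle and WT vehicle overlapped. The 3' end of Pdia6 overlaps Atp6v1c2 on the opposite strand, and their exons share 50 bases. The strand setting of the counting is not given, so reads within those bases cannot be told apart. P4hb, which is also the beta subunit of the collagen prolyl hydroxylase, had 359 to 493 CPM in KO Treg, 443 to 609 CPM in KO vehicle and 318 to 494 CPM in WT vehicle. Its groups overlapped, and its log2 fold change was -0.31 ± 0.15 in KO Treg against KO vehicle and 0.40 ± 0.15 in KO vehicle against WT vehicle (edgeR adjusted p = 0.598 and 0.284). Pdia3, the isomerase that works with calnexin and calreticulin, had 145 to 197 CPM in KO Treg, 156 to 319 CPM in KO vehicle and 176 to 266 CPM in WT vehicle, with all groups overlapping.

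Calnexin and calreticulin bind freshly glycosylated proteins and hold them until they are folded. Calr (chromosome 8, 84841850 to 84846934, minus strand) had 538, 697, 650 and 545 CPM in KO Treg, 914, 872, 722 and 752 CPM in KO vehicle, and 648, 704, 565 and 843 CPM in WT vehicle. All KO Treg libraries were below all KO vehicle libraries, whereas WT vehicle reached into both. The log2 fold change of Calr was -0.42 ± 0.15 in KO Treg against KO vehicle and 0.24 ± 0.15 in KO vehicle against WT vehicle (edgeR adjusted p = 0.419 and 0.553). Canx had 284 to 351 CPM in KO Treg, 386 to 405 CPM in KO vehicle and 268 to 368 CPM in WT vehicle. The KO vehicle libraries of Canx were the highest of the 12 and lay within a coefficient of variation of 2.16%, with log2 fold changes of -0.34 ± 0.13 and 0.23 ± 0.13 in the 2 comparisons that involve them (edgeR adjusted p = 0.465 and 0.498).

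**Figure D2:**
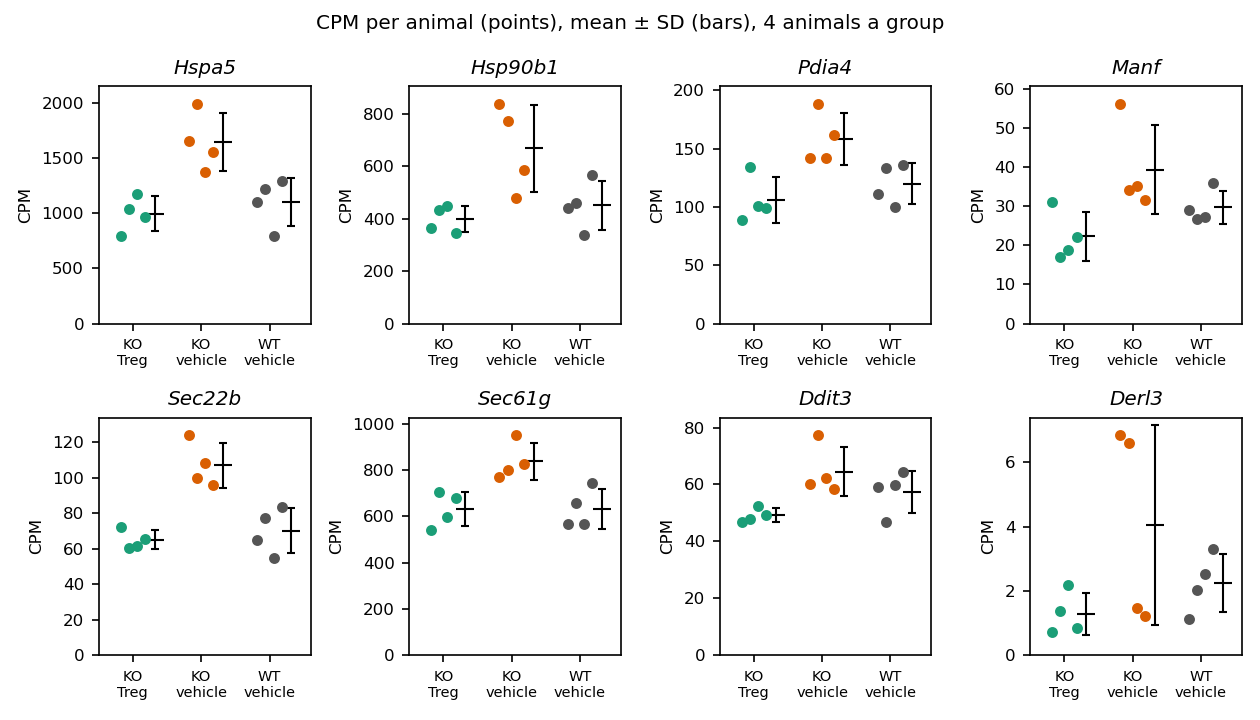
CPM (vertical axis, from 0) of single genes by group, KO Treg, KO vehicle and WT vehicle from left to right, with a point for each of the 4 mice in a group and a bar for the mean ± SD. For Hspa5, Pdia4, Sec22b and Sec61g every KO vehicle point lies above every point of the other groups, and for Derl3 KO vehicle 1 and 2 alone, at 6.85 and 6.62 CPM, stand above the rest.

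Manf, a secreted protein of the ER lumen that protects stressed cells, had 31.1, 17.0, 18.8 and 22.1 CPM in KO Treg, 56.2, 34.1, 35.1 and 31.6 CPM in KO vehicle, and 29.0, 26.6, 27.1 and 35.9 CPM in WT vehicle. KO Treg was below KO vehicle in every library, by a small gap between 31.1 and 31.6 CPM, and KO vehicle 1 stood far above the rest of its group. Its log2 fold change of -0.82 ± 0.21 in KO Treg against KO vehicle was the farthest from 0 of the 15 chaperone genes (edgeR adjusted p = 0.265), and it was 0.40 ± 0.21 in KO vehicle against WT vehicle (edgeR adjusted p = 0.452). Without KO vehicle 1 it was -0.59 in KO Treg against KO vehicle. The end of Manf overlaps Dcaf1 on the opposite strand. Hyou1, an Hsp110 relative that helps BiP exchange nucleotide, had 59.5 to 84.7 CPM in KO Treg, 86.3 to 142 CPM in KO vehicle and 59.8 to 119 CPM in WT vehicle. Its KO Treg and KO vehicle ranges did not touch, with a log2 fold change of -0.58 ± 0.21 (edgeR adjusted p = 0.456).

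The J-domain cochaperones bring clients to BiP. Dnajb9, which also restrains IRE1, had 21.9 to 33.1 CPM in KO Treg, 26.9 to 35.5 CPM in KO vehicle and 30.9 to 43.7 CPM in WT vehicle. It was 1 of the 2 chaperone genes with a fold change below 0 in KO vehicle against WT vehicle (-0.27), and it had the smallest p of the 42 in KO Treg against WT vehicle (-0.33 ± 0.16, edgeR unadjusted p = 0.0597). Dnajc3, which binds clients in the lumen, had 101 to 122 CPM in KO Treg, 99.3 to 149 CPM in KO vehicle and 104 to 142 CPM in WT vehicle, and it was the other gene below 0 (-0.01). Dnajb11 had 29.0 to 34.5 CPM in KO Treg, 32.9 to 38.0 CPM in KO vehicle and 22.5 to 39.4 CPM in WT vehicle. All 3 cochaperones therefore overlapped between every pair of groups. Sdf2l1, which works with the ER cochaperones, and Creld2, an ER stress-induced isomerase, had few reads (10 to 47 and 22 to 93 counts), and their groups overlapped as well, with log2 fold changes of -0.77 and -0.48 in KO Treg against KO vehicle.

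Sec22b encodes the SNARE protein of vesicles that run between the ER and the Golgi apparatus (chromosome 3, 97901190 to 97923276, plus strand). It had 72.4, 60.5, 61.2 and 65.7 CPM in KO Treg, 124, 99.8, 108 and 95.8 CPM in KO vehicle, and 64.8, 77.4, 54.8 and 83.2 CPM in WT vehicle. Every KO vehicle library lay above the other 8, and the KO Treg libraries lay inside the WT vehicle range. The log2 fold change was -0.72 ± 0.14 in KO Treg against KO vehicle, with the smallest p of the 42 (edgeR unadjusted p = 0.000109, adjusted p = 0.248). It was 0.61 ± 0.14 in KO vehicle against WT vehicle (edgeR adjusted p = 0.0836) and -0.11 ± 0.14 in KO Treg against WT vehicle. DESeq2 called both of the first comparisons, with -0.71 (adjusted p = 0.00551) and 0.60 (adjusted p = 0.00777). The edgeR call in KO vehicle against WT vehicle was also reached without WT vehicle 4 (0.70, adjusted p = 0.0392), and the adjusted p of that difference ran from 0.00777 to 0.278 over all alternatives.

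For the 3 membrane sensors, the groups overlapped in every comparison. Ern1, which encodes IRE1, had 1.66, 0.914, 0.777 and 1.46 CPM in KO Treg, 1.60, 1.03, 1.13 and 0.812 CPM in KO vehicle, and 1.69, 0.965, 0.539 and 1.27 CPM in WT vehicle. These values rest on 3 to 21 counts, and the groups overlapped fully, with a log2 fold change of 0.09 ± 0.42 in KO Treg against KO vehicle and -0.03 ± 0.42 in KO vehicle against WT vehicle (edgeR adjusted p = 0.976 and 0.988). Eif2ak3, which encodes PERK, had 3.73 to 4.73 CPM in KO Treg, 3.15 to 6.51 CPM in KO vehicle and 3.86 to 5.32 CPM in WT vehicle, so that KO vehicle held both the lowest and the highest library. Its log2 fold changes were -0.20 ± 0.24 and 0.22 ± 0.24 in the same comparisons (edgeR adjusted p = 0.888 and 0.774). Atf6 had 58.3, 51.3, 56.9 and 50.9 CPM in KO Treg, 53.4, 54.1, 50.7 and 48.5 CPM in KO vehicle, and 60.3, 54.7, 50.3 and 60.9 CPM in WT vehicle. It was the steadiest of the 42 genes, with a highest library 1.26 times its lowest, and its log2 fold changes were 0.07 ± 0.11 and -0.13 ± 0.11 (edgeR adjusted p = 0.917 and 0.696).

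Of the transcription factors below the sensors, Xbp1 and Atf4 overlapped in every comparison. Xbp1, whose messenger IRE1 splices, had 312, 275, 325 and 328 CPM in KO Treg, 410, 313, 321 and 339 CPM in KO vehicle, and 248, 338, 343 and 414 CPM in WT vehicle. The groups of Xbp1 overlapped, and its log2 fold changes were -0.16 ± 0.15 and 0.04 ± 0.15 in KO Treg against KO vehicle and in KO vehicle against WT vehicle (edgeR adjusted p = 0.843 and 0.948). Counts at the 3' end do not separate its spliced from its unspliced form. Atf4, the factor favoured by PERK, had 113, 141, 171 and 127 CPM in KO Treg, 178, 253, 156 and 144 CPM in KO vehicle, and 151, 185, 127 and 261 CPM in WT vehicle. Its highest libraries were KO vehicle 2 and WT vehicle 4, the groups overlapped, and its log2 fold changes were -0.41 ± 0.22 and 0.01 ± 0.22 (edgeR adjusted p = 0.647 and 0.991).

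Ddit3, which encodes CHOP, the factor of prolonged ER stress, had 46.8, 47.8, 52.5 and 49.2 CPM in KO Treg, 60.0, 77.3, 62.1 and 58.5 CPM in KO vehicle, and 59.0, 46.9, 59.7 and 64.2 CPM in WT vehicle. It was the only 1 of the 8 sensor and factor genes whose KO Treg and KO vehicle ranges did not overlap, with a log2 fold change of -0.39 ± 0.13 (edgeR adjusted p = 0.380). KO vehicle against WT vehicle gave 0.17 ± 0.13 with overlapping ranges. The end of Ddit3 overlaps Mars on the opposite strand. Trib3, a pseudokinase induced by ATF4 and CHOP, had 16.1 to 34.4 CPM in KO Treg, 27.8 to 42.2 CPM in KO vehicle and 19.0 to 29.8 CPM in WT vehicle. Its log2 fold changes were -0.44 and 0.50, and the groups overlapped in both. Ppp1r15a, which encodes GADD34, the phosphatase subunit that restores translation, had 2.51 to 7.70 CPM in KO Treg, 5.25 to 6.70 CPM in KO vehicle and 2.52 to 6.97 CPM in WT vehicle, with the narrowest range in KO vehicle. The end of Ppp1r15a overlaps Tulp2 on the opposite strand.

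Of the 3 Sec61 channel subunits, Sec61g alone had ranges that did not overlap. Sec61g, the gamma subunit, had 542, 706, 598 and 681 CPM in KO Treg, 772, 801, 951 and 827 CPM in KO vehicle, and 565, 657, 565 and 744 CPM in WT vehicle. Every KO vehicle library lay above the other 8, with a log2 fold change of -0.41 ± 0.14 in KO Treg against KO vehicle and 0.41 ± 0.14 in KO vehicle against WT vehicle (edgeR adjusted p = 0.388 and 0.201). Sec61a1, the pore subunit, had 378, 461, 581 and 435 CPM in KO Treg, 434, 526, 552 and 500 CPM in KO vehicle, and 502, 583, 433 and 482 CPM in WT vehicle. These overlapped, with log2 fold changes of -0.12 ± 0.15 and 0.01 ± 0.15 (edgeR adjusted p = 0.891 and 0.993), and the antisense gene Gm44170 overlaps its end. Sec61b, the beta subunit, had 80.2 to 97.2 CPM in KO Treg, 92.4 to 115 CPM in KO vehicle and 79.8 to 104 CPM in WT vehicle, with -0.19 ± 0.13 and 0.15 ± 0.13 (edgeR adjusted p = 0.740 and 0.695).

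For each of the other 8 translocon and signal peptidase genes the ranges overlapped in every comparison. Sec62 and Sec63, which help proteins through the channel after translation, had log2 fold changes of 0.01 and 0.04 in KO Treg against KO vehicle and of -0.13 each in KO vehicle against WT vehicle. Among the 3 subunits of the translocon-associated complex, Ssr1, Ssr2 and Ssr3, these were -0.12, -0.26 and 0.08 in the first comparison and 0.06, 0.22 and 0.03 in the second. The signal peptidase genes Spcs1, Spcs2 and Spcs3 gave -0.05, -0.20 and -0.14, and then 0.14, -0.06 and -0.50. Spcs3 was among the most variable of the 42, with 2.49 to 10.8 CPM in KO Treg, 4.50 to 10.96 CPM in KO vehicle and 5.23 to 12.004 CPM in WT vehicle, from 16 to 112 counts.

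In ER-associated degradation, Herpud1, which gathers the degradation complex, had 126, 125, 118 and 115 CPM in KO Treg, 142, 137, 116 and 104 CPM in KO vehicle, and 156, 117, 137 and 161 CPM in WT vehicle. These groups overlapped, and its log2 fold change was -0.05 ± 0.13 in KO Treg against KO vehicle and -0.19 ± 0.13 in KO vehicle against WT vehicle (edgeR adjusted p = 0.961 and 0.610). Sel1l, the partner of the ubiquitin ligase HRD1, had 139 to 224 CPM in KO Treg, 198 to 237 CPM in KO vehicle and 168 to 186 CPM in WT vehicle. KO vehicle lay above WT vehicle in every library (0.26 ± 0.14, edgeR adjusted p = 0.493), and KO Treg overlapped both. Edem1, which marks misfolded glycoproteins, had 24.2 to 37.3 CPM in KO Treg, 27.0 to 48.6 CPM in KO vehicle and 24.8 to 33.2 CPM in WT vehicle. Syvn1, which encodes HRD1, varied 7.43-fold between libraries, with 8.22 to 61.1 CPM in KO Treg, 9.41 to 40.3 CPM in KO vehicle and 16.2 to 37.2 CPM in WT vehicle, and the end of Syvn1 overlaps Mrpl49 on the opposite strand.

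The derlins, which help move proteins out of the ER, did not share a direction. Derl1 had 378 to 516 CPM in KO Treg, 307 to 481 CPM in KO vehicle and 323 to 544 CPM in WT vehicle, and its log2 fold change of 0.26 in KO Treg against KO vehicle was the highest of the 42. Derl2 had 75.4 to 93.7 CPM in KO Treg, 86.0 to 106 CPM in KO vehicle and 79.4 to 90.7 CPM in WT vehicle. Derl3 had 0.711, 1.37, 2.18 and 0.850 CPM in KO Treg, 6.85, 6.62, 1.46 and 1.22 CPM in KO vehicle, and 1.13, 2.04, 2.52 and 3.29 CPM in WT vehicle. KO vehicle 1 and 2 were high, and KO vehicle 3 and 4 lay within the KO Treg range. The log2 fold change was -1.68 ± 0.58 in KO Treg against KO vehicle (edgeR adjusted p = 0.421), from 6 to 64 counts a library. Derl3 is rich in secretory cells, and the plasma and B cell markers summed to 11.9 CPM in the first of these mice, 48.2 CPM in the second and 76.5 CPM in WT vehicle 4, where Derl3 was at 3.29 CPM. The part of such cells in its values was not tested.

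Set against WT vehicle, the KO Treg mice overlapped for every one of the 42 genes. The 6 genes of smallest unadjusted p there were Dnajb9 (-0.33 ± 0.16), Manf (-0.41 ± 0.21), Herpud1 (-0.24 ± 0.13), Atf4 (-0.39 ± 0.22), Ddit3 (-0.23 ± 0.13) and Spcs3 (-0.64 ± 0.42), all with log2 fold changes below 0. Their unadjusted edgeR p-values ran from 0.0597 to 0.150, and each adjusted p was above 0.9. Hspa5, Hsp90b1 and Calr gave -0.15, -0.18 and -0.18 in this comparison, and P4hb 0.09.

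**Figure D3:**
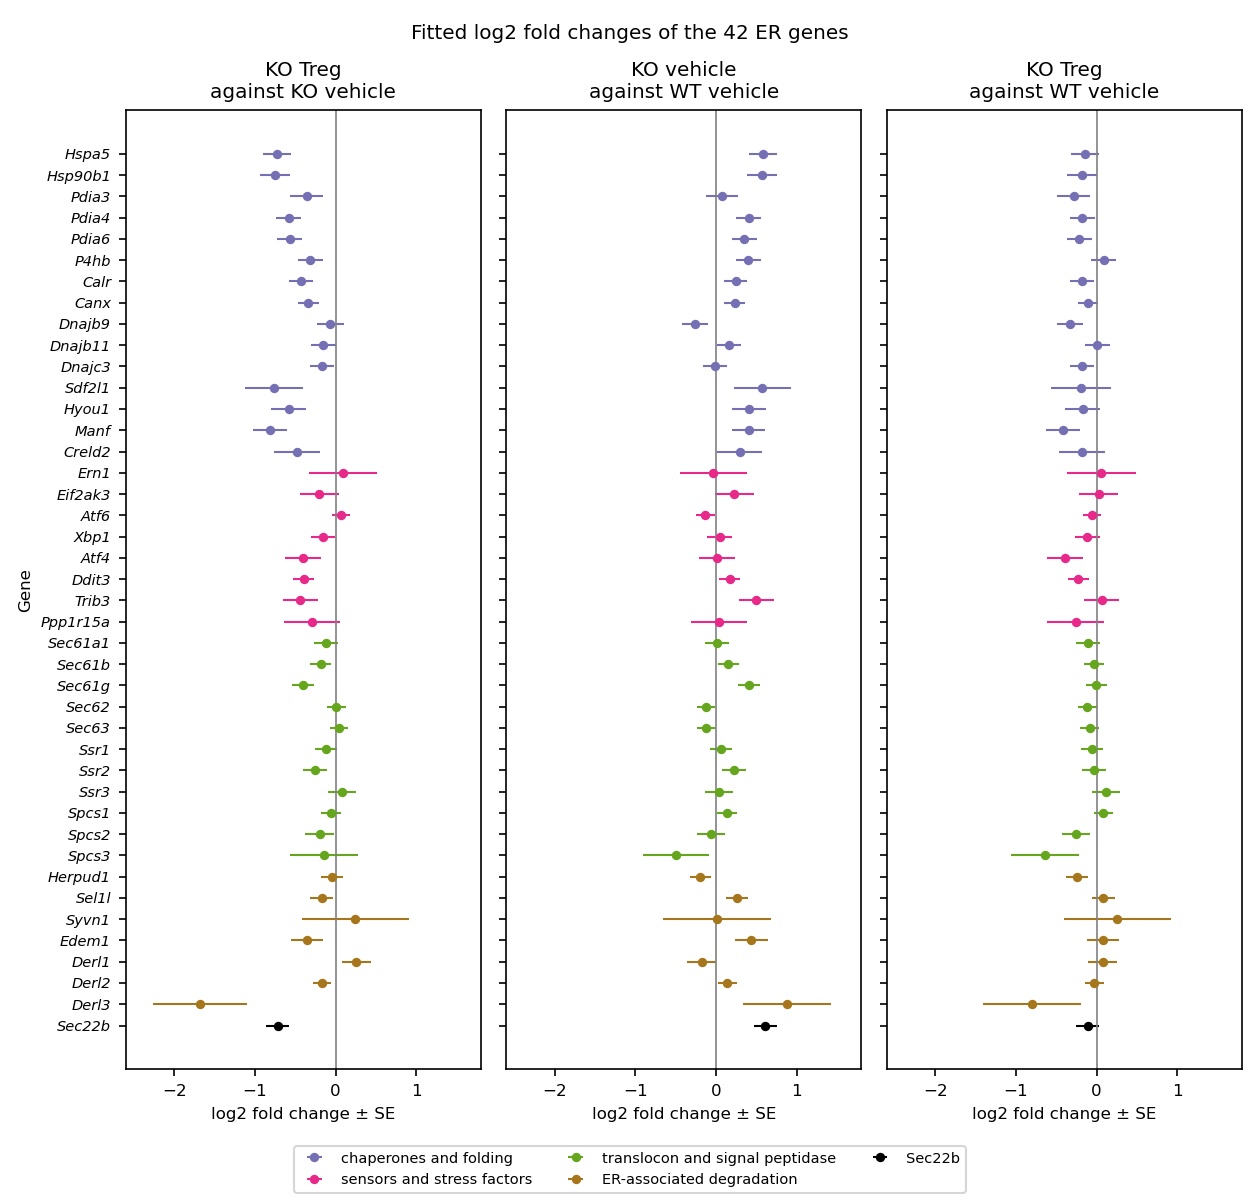
Log2 fold change of each of the 42 genes (1 point a gene, with bars of 1 SE) in KO Treg against KO vehicle, KO vehicle against WT vehicle and KO Treg against WT vehicle, with genes coloured by role. All 15 chaperone genes lie below 0 in the first comparison and 13 above 0 in the second, whereas the translocon genes lie on either side of 0, and no gene passed an adjusted p of 0.05 in edgeR.

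Set side by side, the classes differed in how far they lay from 0. In KO Treg against KO vehicle the median log2 fold change was -0.48 for the chaperones (15 of 15 below 0, 8 without overlap), -0.25 for the sensors and factors (6 of 8 below 0, 1 without overlap), -0.12 for the translocon and signal peptidase (8 of 11 below 0, 1 without overlap) and -0.17 for degradation (5 of 7 below 0, 0 without overlap). In KO vehicle against WT vehicle the medians were 0.35 for the chaperones (13 of 15 above 0, 3 without overlap), 0.04 for the sensors and factors (6 of 8 above 0, 0 without overlap), 0.03 for the translocon (7 of 11 above 0, 1 without overlap) and 0.14 for degradation (5 of 7 above 0, 1 without overlap). The genes without overlap were all lower in the first of these comparisons (3.03% of all genes) and all higher in the second (4.17% of all genes). For KO Treg against WT vehicle the medians were -0.18, -0.09, -0.06 and 0.08 in the same order of classes. The translocon median in KO Treg against KO vehicle was -0.01 without KO vehicle 1, and 0.024 without both placental libraries. That of the chaperones was -0.43 without both.

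The mean log2 CPM over the 15 chaperones was 6.46, 6.52, 6.50 and 6.51 in KO Treg, 7.19, 7.05, 6.75 and 6.86 in KO vehicle, and 6.59, 6.69, 6.39 and 6.99 in WT vehicle. The 4 KO Treg mice were close together (SD 0.02) and below all 4 KO vehicle mice, while WT vehicle spread over both (SD 0.25 against 0.19 in KO vehicle). The mean over the 8 sensors and factors was 4.41 to 4.62 in KO Treg, 4.63 to 4.87 in KO vehicle and 4.30 to 4.87 in WT vehicle, so that KO Treg lay just below KO vehicle. For the 11 translocon genes it was 6.84 to 7.07, 6.99 to 7.30 and 6.91 to 7.19 in KO Treg, KO vehicle and WT vehicle, and all of these groups overlapped. The chaperone mean minus the translocon mean, a measure that a common scaling of the library leaves as it is, was -0.46 ± 0.14 in KO Treg, -0.13 ± 0.16 in KO vehicle and -0.41 ± 0.18 in WT vehicle (SD, n = 4). On that measure KO Treg 2 and KO vehicle 3 were both at -0.32, so the groups met there, and the WT vehicle mice ran from -0.60 to -0.20.

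**Figure D4:**
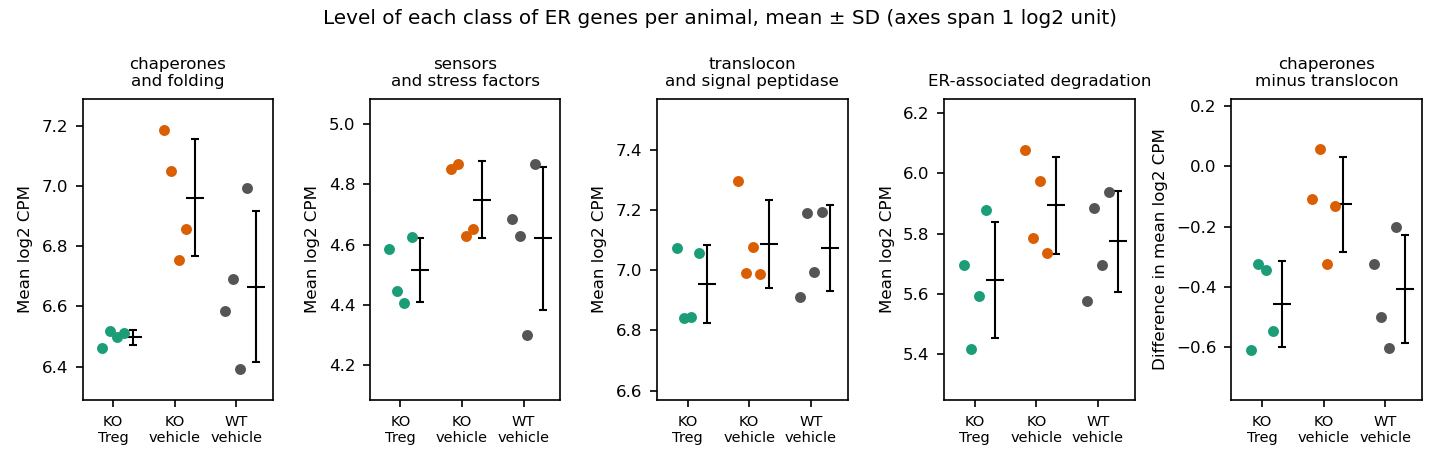
Mean log2 CPM of each class of genes in each mouse, by group from left to right KO Treg, KO vehicle and WT vehicle, with a point for each of the 4 mice and a bar for the mean ± SD, and in the last panel the chaperone mean minus the translocon mean. Each vertical axis spans 1 log2 unit and does not start at 0. The KO Treg chaperone points lie between 6.46 and 6.52, below the KO vehicle points at 6.75 to 7.19, while the translocon points of all groups overlap.

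Other values that differ between the libraries are given beside the chaperone levels. Fasn, the fatty acid synthase gene, chosen after its values were seen, had 19218, 6694, 2341 and 15694 CPM in KO Treg, 558, 778, 12524 and 2025 CPM in KO vehicle, and 6994, 18138, 10009 and 2141 CPM in WT vehicle. KO vehicle 3, with the highest Fasn of its group, had the lowest chaperone mean of its group, and WT vehicle 4, with the lowest Fasn of its group, had the highest. WT vehicle 2, with the highest Fasn of its group, had the second highest chaperone mean (6.69), and WT vehicle 3 had the lowest (6.39). In KO Treg, Fasn ran from 2341 to 19218 CPM while the chaperone mean stayed between 6.46 and 6.52. That mean joins genes that differed in direction. KO Treg 1, with the highest Fasn, was the highest of its group for 5 chaperones and the lowest for 5. KO Treg 3, with the lowest Fasn, was the highest for 4 and the lowest for 4. Hspa5 was at 798 CPM in KO Treg 1 and 1178 CPM in KO Treg 3. The chaperone mean minus the translocon mean was -0.61, -0.32, -0.34 and -0.55 in KO Treg 1 to 4. The macrophage markers (7 of 8 present) summed to 266 to 367 CPM in KO Treg, 331 to 413 CPM in KO vehicle and 277 to 360 CPM in WT vehicle, and the fibroblast markers (7 of 7) to 2501 to 3356 CPM in KO Treg, 2204 to 2623 CPM in KO vehicle and 2165 to 4510 CPM in WT vehicle. The part of these features in the chaperone values was not tested. Without KO Treg 2 and KO vehicle 1, the placental libraries, 12 of the 42 genes did not overlap in KO Treg against KO vehicle. All 12 were lower, where 6.90% of all genes were lower and 6.76% higher. In KO vehicle against WT vehicle 6 were then higher and 1 lower, against 5.52% and 4.23% of all genes.

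Animal numbers come from a low and a high block, unexplained in the labels, and all 4 KO vehicle mice belong to the low block. Within the low block, with 2 KO Treg, 4 KO vehicle and 2 WT vehicle mice, 15 of the 42 genes were lower without overlap in KO Treg against KO vehicle (6.72% of all genes) and 0 higher, 9 of the 15 being chaperones. KO vehicle against WT vehicle gave 13 higher (10.5% of all genes) and 1 lower (9.5%), and 9 chaperones were among those higher. With the block as a covariate the chaperone medians were -0.45 in KO Treg against KO vehicle and 0.34 in KO vehicle against WT vehicle, and 0 of the 42 genes were called in either.

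Genes with an ERSE in the sequences above were compared with the rest as a description. Of the 9 ERSE genes, 8 were below 0 in KO Treg against KO vehicle and 5 did not overlap (median -0.48). Of the 26 genes with a promoter and no ERSE, 22 were below 0 and 4 did not overlap (median -0.19). Over all genes, 3.03% were lower without overlap in this comparison. Most ERSE genes are chaperones. Within the chaperones the medians were -0.48 for the 7 with an ERSE (5 without overlap) and -0.33 for the 6 with no match in the promoter window (1 without overlap). Manf (-0.82) and Hyou1 (-0.58), both lower without overlap, had no promoter entry and are in neither set. For KO vehicle against WT vehicle the chaperone medians were 0.29 for those with an ERSE and 0.28 for those without. Outside the list, 7 tested genes had an ERSE promoter, with 4 fold changes below 0 and 3 above in KO Treg against KO vehicle. Their median there was -0.11, with 0 genes without overlap, and it was -0.12 in KO vehicle against WT vehicle.

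Neighbouring steps of the secretory pathway, listed apart from the 42 genes, held 0 genes called by edgeR in any comparison. DESeq2 called Creb3l1, Kdelr2 and Mthfd2 in KO Treg against KO vehicle and Creb3l1 and Mthfd2 in KO vehicle against WT vehicle. A list of 27 genes held 22 of transport between the ER and the Golgi apparatus and 5 for membrane-bound transcription factors (Creb3l1, Creb3l2, Atf6b) and the Golgi proteases that release such factors (Mbtps1, Mbtps2). Of the 27, 22 were below 0 in KO Treg against KO vehicle (median -0.17, 6 without overlap against 3.03% of all genes, 7 at an unadjusted edgeR p under 0.05 against 5.08%), and 23 had one above 0 in KO vehicle against WT vehicle (median 0.20, 6 without overlap against 4.17%, 7 at such a p against 6.98%). Of the 22 transport genes alone, 19 were below 0 in the first of these comparisons (median -0.17, 5 at such a p) and 20 above 0 in the second (median 0.23, 5 at such a p). Creb3l1, a membrane-bound transcription factor that serves collagen secretion, had 6.86 ± 1.11 CPM in KO Treg, 15.4 ± 3.07 CPM in KO vehicle and 7.47 ± 2.41 CPM in WT vehicle (SD, n = 4), with log2 fold changes of -1.16 and 1.05 in the comparisons that involve KO vehicle (edgeR adjusted p = 0.248 and 0.0836). Kdelr2, the receptor that returns chaperones such as BiP to the ER, had 47.2 ± 1.87 CPM in KO Treg, 68.7 ± 7.19 CPM in KO vehicle and 51.9 ± 5.93 CPM in WT vehicle (SD, n = 4), with -0.54 and 0.40 (edgeR adjusted p = 0.248 and 0.162). Of 16 tested targets of PERK and ATF4, 15 were below 0 in KO Treg against KO vehicle (median -0.19, 2 without overlap against 3.03% of all genes, 4 at such a p against 5.08%) and 12 above 0 in KO vehicle against WT vehicle (median 0.19, 0 without overlap against 4.17%, 1 at such a p against 6.98%). Mthfd2, a mitochondrial folate enzyme, had 17.4 ± 3.01 CPM in KO Treg, 36.4 ± 10.8 CPM in KO vehicle and 17.1 ± 7.09 CPM in WT vehicle (SD, n = 4), with -1.07 and 1.09 (edgeR adjusted p = 0.260 and 0.101). The remaining lists lay nearer to 0. Other ER folding genes (20 tested) had medians of -0.08 and 0.06, other degradation genes (17 tested) -0.06 and -0.03, and genes of targeting and glycosylation (21 tested) -0.08 and 0.03, in KO Treg against KO vehicle and in KO vehicle against WT vehicle. At an unadjusted edgeR p under 0.05, these lists held 2, 1 and 1 genes in KO Treg against KO vehicle, all lower, against 5.08% of all genes. In KO vehicle against WT vehicle 1 folding gene was higher and 1 lower, 0 degradation genes passed, and 1 targeting gene was higher, against 6.98% higher and 5.45% lower of all genes. In KO Treg against WT vehicle the median farthest from 0 among the 5 lists was -0.07, that of other degradation genes, and 1 target of PERK and ATF4 was lower at such a p, against 1.32% of all genes.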

How the data were processed

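RNA from gonadal white fat was made into 3' libraries with a QuantSeq kit, per the labels' protocols, so counts reflect transcript ends and levels of different genes are not compared. The authors deposited raw counts per gene symbol, 1 table for each of 12 libraries. The submitters' processing notes list HTSeq 0.6.1, TopHat2 2.1.1, SAMtools 1.3.1 and BWA 0.7.12, and build mm10. Which step each tool served, the annotation and the handling of strand were not given in the sources used here.

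Counts were scaled by TMM, filtered with filterByExpr and tested with the edgeR 4.0.16 quasi-likelihood test (robust, R 4.3.3), with the 3 groups in 1 fit, no covariate and Benjamini-Hochberg adjustment over all 12175 genes (threshold 0.05). CPM use TMM-scaled totals, and log2 CPM a prior count of 2. SE is the size of the log2 fold change over the square root of F. The fits were tested on simulated data. Alternatives were DESeq2 1.42.0, RLE factors, no filter, the block of animal numbers as a covariate, fits of 2 groups, and leaving libraries out. Groups come from the labels, and replicates are numbered by accession and pair no mice. Where a difference is said to be without overlap, all mice of 1 group lay on 1 side of all mice of the other. Values with a count of 3 as the floor cover counting error only.

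The 42 genes, their classes, the other pathway lists and the marker lists were chosen with earlier results of these data known. Full statistics were given to a lead gene of each role and to the 6 genes of smallest p in each comparison. Other genes named with statistics, Fasn and the promoter motifs among them, were chosen after values were seen. Positions and overlaps are from GENCODE M21 (mm10).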

Additional observations from a re-analysis of the deposited data

Results flagged for a closer look

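For 8 of the 126 sets of 4 mice (42 genes in 3 groups), the highest or lowest mouse stood apart from the rest by a gap above Dixon's critical value. Chance alone gives about 1 in 20 such sets. In KO vehicle 1, Manf was at 56.2 CPM (31.6 to 35.1 in the rest of its group), Ssr3 at 156 CPM (93.8 to 103), Spcs2 at 150 CPM (97.1 to 105) and Spcs3 at 11 CPM (4.50 to 5.38). KO vehicle 1 is also 1 of the 2 libraries with the highest placental sums (111 CPM), and the part of placental transcripts in the 4 values was not tested. Dnajb9 was at 21.9 CPM in KO Treg 2 (32.5 to 33.1), the other of those 2 libraries. Sel1l was at 237 CPM in KO vehicle 2 (198 to 204). In WT vehicle, Canx was at 268 CPM in WT vehicle 3 (357 to 368) and Ssr1 at 152 CPM in WT vehicle 4 (122 to 125).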

How the results depend on the processing

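Depth limits the genes with few reads: Ern1, Derl3, Sdf2l1, Eif2ak3, Ppp1r15a and Creld2 had fewer than 100 counts in every library. No paired analysis was possible because the labels give no replicate numbers shared between groups. Fits on the lower block of animal numbers alone were in part chosen after seeing the data.

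In KO Treg against KO vehicle, edgeR called 1 gene in all, 0 with RLE factors, with the block as covariate, with 2 groups alone, without the placental libraries and in the lower block, 0 to 0 with any single library left out, and DESeq2 called 54. In KO vehicle against WT vehicle the count was 34, then 250 in DESeq2, 0 with the covariate and in the lower block, 3 without the placental libraries, and 1 to 125 with each library left out (125 without WT vehicle 4). In KO Treg against WT vehicle it was 0, and 1 in DESeq2. Of the 42 genes, DESeq2 called 3 in the first comparison and 1 in the second, and leaving out a library gave 0 to 1 in the second. Genes of the 42 without overlap numbered 11, 6 and 0 in the 3 comparisons (5.04%, 6.51% and 1.63% of all genes), and 15, 14 and 9 in the lower block (14.1%, 20.0% and 28.9%). With both directions together the last lies below the share of all genes. Of those 9 genes, 8 were lower in KO Treg and 1 higher, against 13.9% lower and 15% higher of all genes. With each library left out, genes of the 42 without overlap numbered 10 to 15 (5.0% to 11%), 6 to 12 (6.4% to 12%) and 0 to 3 (1.7% to 5.7%). The translocon median in KO Treg against KO vehicle was 0.024 without the placental libraries, against -0.12 with all. The cause of these shifts was not tested.

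The chaperone medians kept their sign in every alternative, in all 3 comparisons: with each library left out they ran from -0.62 to -0.38 in KO Treg against KO vehicle and from 0.21 to 0.47 in KO vehicle against WT vehicle. Medians near 0 turned sign when 1 library was left out: that of the sensors and factors ran from -0.052 to 0.19 and that of the translocon from -0.046 to 0.086 in KO vehicle against WT vehicle, and that of degradation from -0.089 to 0.11 in KO Treg against WT vehicle. Signs of genes near 0 turned too. Herpud1 in KO Treg against KO vehicle was at 0.0061 without the placental libraries and 0.026 in the lower block. In KO vehicle against WT vehicle, Sec61a1 was at -0.000899 with RLE factors, -0.0023 in DESeq2 and -0.12 in the lower block, and Xbp1 at -0.0551 without the placental libraries. In KO Treg against WT vehicle, Eif2ak3 was at -0.012 without the placental libraries, and Xbp1 was at 0.0092 and Ern1 at -0.054 in the lower block. With each library left out, Ern1 ran from -0.086 to 0.30 and Herpud1 from -0.11 to 0.027 in KO Treg against KO vehicle. For KO vehicle against WT vehicle, Xbp1 ran from -0.096 to 0.16, Atf4 from -0.20 to 0.24, Ern1 from -0.23 to 0.24 and Sec61a1 from -0.070 to 0.089. For KO Treg against WT vehicle, Xbp1 ran from -0.24 to 0.0018, Ern1 from -0.13 to 0.35, Eif2ak3 from -0.033 to 0.14 and Sec61b from -0.097 to 0.029.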
